A study of Mus musculus with 6 samples.

Results

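The endothelial identity genes described here are 10 genes chosen by symbol: Pecam1, Cdh5, Kdr, Flt1, Tek, Tie1, Eng, Egfl7, Erg and Emcn. They were found by matching the Ensembl gene identifiers of the deposited count table to mouse symbols, and they are 10 of 55487 identifiers. The rule itself uses no expression value, but the list was chosen with earlier results of these data known. The samples were 6 bulk poly(A) RNA-sequencing libraries from primary cultures of C57BL/6 mouse skin, labelled as endothelial cells (ECs). Of these, 3 cultures received medium with normal glucose (5 mmol/L) and 3 received high glucose (20 mmol/L), in each case for 48 hours. The comparison asks what a model of hyperglycemia does to cultures with this label. Cells for an isolation were taken from the pooled skin of 4 to 6 mice aged 2 to 3 months and collected with magnetic beads against CD31, the protein that Pecam1 encodes, before they were cultured. The publication's legends count the replicates in mice, whereas the labels do not say whether they came from separate isolations. The P values therefore set each group difference against the spread between these samples, some or all of which may be technical.

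ECs line the inner surface of blood and lymphatic vessels. They carry receptors for vascular endothelial growth factors and angiopoietins, are joined to each other by VE-cadherin and CD31, and keep their identity through transcription factors of the ETS family, ERG among them. Bulk RNA from a culture sums over all the cells present, and fewer cells of a type and less RNA per cell cannot be told apart.

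Each library held between 120192466 and 146881356 counts, so that 3 counts, the floor used here, corresponded to 0.0204 to 0.0250 CPM, which is counts scaled to a common library total. Such floors and the Poisson intervals given below cover counting error only. Even values were common among the low counts, with 4874 entries of 4 against 4716 of 3 and 3012 of 6 against 2810 of 5. Entries of 1 were nevertheless more frequent than entries of 2, at 10842 against 9280. Where both reads of a pair were counted, the Poisson intervals of the scarce members (Pecam1, Erg, Emcn and Tie1) are too narrow. CPM values are normalised with the TMM factors of edgeR, which were 1.03 to 1.05 in normal glucose and 0.954 to 0.966 in high glucose. Genes were compared with edgeR's quasi-likelihood test and called at a Benjamini-Hochberg adjusted P value under 0.05, with 19015 genes passing the filter on low counts. Log2 fold changes are high minus normal glucose, and their median over all tested genes was 0.0062. That median was -0.11 when library size alone set the scale, and the share of all calls that were lower rose from 46.2% to 72.9% there and to 56.5% with upper quartile scaling.

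Several members were at or near 0 in cultures labelled endothelial. Pecam1 had 9 to 19 counts per library, Erg 2 to 15, Emcn 0 to 9 and Tie1 0 to 2. Together the 10 members held 0.0223% to 0.0249% of the raw counts in normal glucose and 0.0184% to 0.0192% in high glucose. These shares and those of the lists below were taken without the TMM factors. Eng supplied 66.1% to 71.8% of the member counts and Flt1 19.3% to 24.7%, so the members' pooled share is mainly that of these genes. A list of 11 fibroblast genes held 4.08% to 4.36% and 6.86% to 7.26%. Col3a1, a fibrillar collagen gene and the most abundant of these, stood at 1265 ± 66.3 and 3312 ± 169 CPM per kilobase (kb) of exon (SD, n = 3). Among the 11 fibroblast genes, 9 were called higher and 1 lower, Thy1, at a log2 fold change of -0.40 (edgeR adjusted P = 1.8e-04). The shares over all tested genes were 14.5% called lower and 16.9% called higher, beside which the calls of each list here stand. A list of 11 pericyte and smooth muscle genes held 0.0676% to 0.0750% and 0.0517% to 0.0547% of the counts, with 6 genes called lower and 2 higher. Its most abundant gene per kb was Acta2, called lower, at 177 ± 8.75 and 145 ± 3.55 CPM per kb. The 2 called higher were Rgs5 and Abcc9, at log2 fold changes of 1.20 and 0.84. No gene of either list was under 10 counts in every library. The lists for other cells were smaller in counts. Of 9 leukocyte genes, 2 were called lower and 1 higher. The gene called higher was Cd14, the most abundant per kb, at 5.47 and 12.2 CPM per kb. Those called lower were Csf1r and Cd68, at log2 fold changes of -0.73 and -0.46, and Cd68 kept its call in 10 of 18 alternatives. C1qb had 0 counts in every library and Adgre1 had 3 counts in 1 library. Of 4 platelet genes, 2 were tested and Ppbp was called lower, at a log2 fold change of -0.65, while Itga2b, the most abundant per kb, stood at 1.17 and 1.38 CPM per kb and was not called. Of 8 keratinocyte genes, 3 were tested. Krt5, a basal keratin gene, was called higher, from 2 counts in each normal glucose library to 23, 12 and 14 in high glucose. It passed the filter on low counts through its high glucose samples alone, so whether Krt5 was tested depended on the direction of its difference. Krt14, the basal partner of Krt5, was not tested and had 2, 0 and 0 counts against 35, 9 and 31. Krt10, the most abundant keratinocyte gene per kb, stood at 1.10 and 0.950 CPM per kb and was not called. Of 6 Schwann cell and melanocyte genes, 2 were called lower and 1 higher, and Sox10 stood at 2.71 and 2.11 CPM per kb. Of 4 adipocyte genes, 3 were called higher, and Adipoq stood at 13.9 and 22.2 CPM per kb. The part of other cell types in the members' differences was not tested.

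Of the 10 members, 8 passed the filter on low counts, and Tie1 and Emcn did not. Among the 8 tested, 3 were called lower in high glucose (Cdh5, Flt1 and Egfl7), where 14.5% of all tested genes were called lower. A further 2 were called higher (Tek and Erg), where 16.9% of all tested genes were called higher. Kdr, Eng and Pecam1 were not called, and the median log2 fold change of the 8 was -0.19. Calls in either direction thus took 5 of the 8, where 31.4% of all tested genes were called. The same 5 members were those whose groups did not overlap, against 46.4% of all tested genes. Erg passed the filter through its high glucose samples alone, so its place among the tested genes depended on the direction of its difference.

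**Figure D1:**
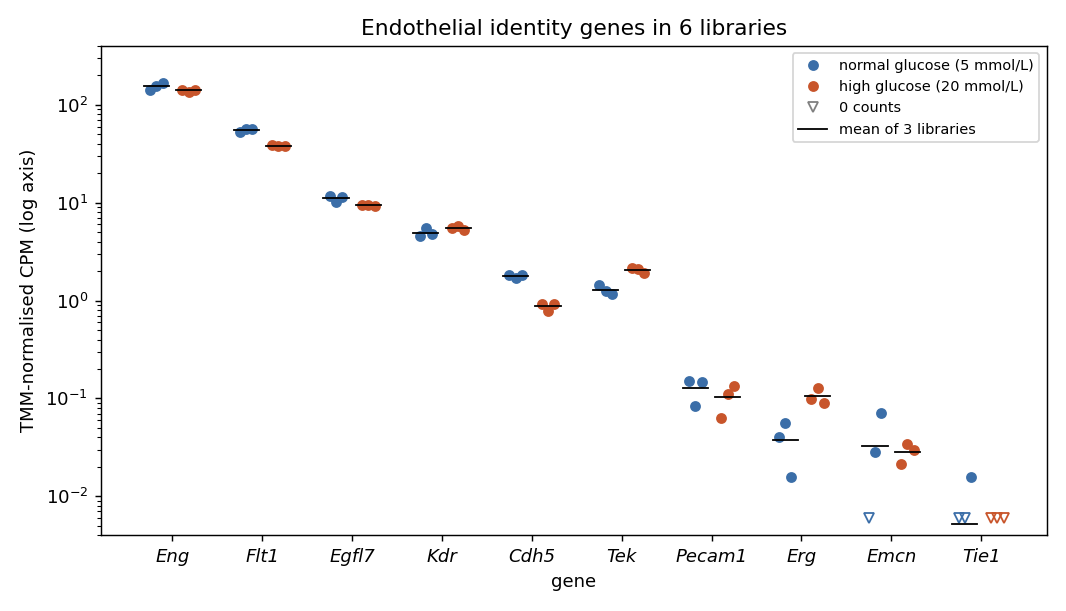
TMM-normalised CPM (log axis) of each of the 10 members in the 3 normal and 3 high glucose samples, with 1 point per sample and a line at the group mean; a count of 0 is drawn as an open triangle near the foot of the plot. The groups lie apart for Cdh5, Flt1 and Egfl7 (lower in high glucose) and for Tek and Erg (higher), and Tie1 had counts in 1 sample alone.

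Kdr and Flt1 encode the receptors VEGFR2 and VEGFR1 for vascular endothelial growth factor A. VEGFR2 is the main signalling receptor of ECs, and VEGFR1 binds the ligand tightly, signals weakly and is also made as a soluble decoy. Kdr (ENSMUSG00000062960) lies on chr5:75932827-75978458 of GRCm38, on the minus strand. Its normalised values were 4.60, 5.47 and 4.80 CPM in normal glucose replicates 1, 2 and 3 and 5.48, 5.74 and 5.28 CPM in high glucose. The highest normal glucose sample lay above the lowest high glucose sample, so the groups overlapped. Kdr had a log2 fold change of 0.15 (SE 0.093, 95% interval -0.06 to 0.36, edgeR adjusted P = 0.252), which leaves both a small fall and a rise within the interval. Flt1 (ENSMUSG00000029648), at chr5:147561604-147726011 on the minus strand, is on the same chromosome. It measured 52.9, 56.6 and 56.3 CPM in normal glucose and 38.6, 38.3 and 38.3 CPM in high glucose. Every high glucose sample lay below every normal glucose sample, and the high glucose samples were close to one another. Flt1 fell by 0.53 on the log2 scale (SE 0.051, 95% interval -0.64 to -0.41, edgeR adjusted P = 3.0e-05). On the linear scale it decreased by 30.5%, from 55.3 ± 2.06 to 38.4 ± 0.153 CPM (SD, n = 3).

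Tek and Tie1 encode TIE2, the receptor of the angiopoietins, and its partner TIE1, which has no well established ligand of its own and modulates TIE2. Tek (ENSMUSG00000006386) lies on chr4:94739289-94874976, plus strand. Its values were 1.44, 1.25 and 1.18 CPM in normal glucose and 2.13, 2.09 and 1.89 CPM in high glucose. All high glucose samples exceeded all normal glucose samples. Tek rose by 58.1%, a log2 fold change of 0.66 (SE 0.121, 95% interval 0.39 to 0.93, edgeR adjusted P = 0.00219), from 151 to 180 counts per library to 243 to 302. Tie1 (ENSMUSG00000033191), also on chromosome 4 at 118471191-118490061, minus strand, had 2 counts in normal glucose replicate 3 and 0 in each of the other 5 libraries. A sum of 0 over the 3 high glucose libraries allows up to 3.69 counts (95% Poisson interval), so Tie1 was below what a fold change needs in both groups, and none is given. The 2 receptor genes thus differed in level per kb: Tek stood at 0.273 ± 0.028 and 0.432 ± 0.027 CPM per kb, and Tie1 at no more than 0.0032 CPM per kb in any library.

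The stretches upstream of the 3 receptor kinase genes that were tested are shown because the genes went different ways: Flt1 was called lower, Tek higher and Kdr neither. Each is the 250 bases before the gene's start in RefSeq for GRCm38.p6, read 5′ to 3′ on the gene's strand, with GGAA or its reverse complement TTCC in capitals. These letters are the core that ETS factors such as ERG recognise. The windows are chr5:147726012-147726261 (minus) for Flt1, chr4:94739039-94739288 (plus) for Tek and chr5:75978456-75978705 (minus) for Kdr.
Flt1: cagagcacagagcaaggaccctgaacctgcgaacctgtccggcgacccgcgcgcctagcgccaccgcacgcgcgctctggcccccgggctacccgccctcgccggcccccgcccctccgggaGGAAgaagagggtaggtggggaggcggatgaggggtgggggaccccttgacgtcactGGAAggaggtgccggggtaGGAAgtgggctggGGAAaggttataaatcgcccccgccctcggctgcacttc
Tek: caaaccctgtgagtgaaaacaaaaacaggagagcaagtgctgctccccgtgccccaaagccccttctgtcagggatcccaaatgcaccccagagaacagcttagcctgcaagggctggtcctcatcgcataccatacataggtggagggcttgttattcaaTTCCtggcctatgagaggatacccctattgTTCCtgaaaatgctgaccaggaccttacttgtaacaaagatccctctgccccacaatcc
Kdr: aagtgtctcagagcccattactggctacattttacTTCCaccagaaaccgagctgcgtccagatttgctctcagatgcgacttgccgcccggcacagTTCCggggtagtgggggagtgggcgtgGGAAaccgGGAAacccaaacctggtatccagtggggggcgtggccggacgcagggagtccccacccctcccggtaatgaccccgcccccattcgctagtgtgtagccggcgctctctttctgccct
The Flt1 window held 4 matches, the Tek window 2 and the Kdr window 4. Such matches are common: GGAA on either strand was found in 93.4% of 32851 RefSeq windows of that length, and in 11 of the 12 windows of the 8 members with an entry. The longer CAGGAA, which contains GGAA, was found in 25.7% of all windows and in 6 of these 12, including both matches of Tek. CCGGAA, which also contains GGAA, was found in 12% of all windows and in 1 of the 12, that of Kdr. The GC content was 70.4% in the Flt1 window, 51.2% in that of Tek and 61.6% in that of Kdr. A match is a run of letters and was not tested as a binding site.

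Eng encodes endoglin, a co-receptor for ligands of the TGF-β and BMP families that works with the receptor kinase ALK1 in ECs and is also made by mesenchymal cells. Eng (ENSMUSG00000026814; chr2:32646595-32682669, plus strand) had 17752, 22307 and 21268 counts under normal glucose, against 20170, 15854 and 19212 under high glucose. On the normalised scale these were 142, 157 and 166 CPM and 142, 136 and 143 CPM. Normal glucose replicate 1 lay among the high glucose samples, so the groups overlapped. Eng was not called, with a log2 fold change of -0.14 (SE 0.063, 95% interval -0.28 to -0.0024, edgeR adjusted P = 0.113). Without normal glucose replicate 1 it was called, at -0.22 (edgeR adjusted P = 0.00465), and it was also called when library size alone set the scale, at -0.26 (edgeR adjusted P = 0.00986). A 61-bp stretch of its exons is shared with Fpgs on the opposite strand, which had 2127 to 2927 counts and a log2 fold change of 0.12 (edgeR adjusted P = 0.203).

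Cdh5 and Pecam1 encode the junction proteins of ECs. Cdh5 makes VE-cadherin, which forms the adherens junctions between neighbouring ECs. Cdh5 (ENSMUSG00000031871; chr8:104101625-104144511, plus strand) measured 1.84, 1.71 and 1.84 CPM in normal glucose and 0.916, 0.783 and 0.927 CPM in high glucose. The lowest normal glucose sample was well above the highest high glucose sample. Cdh5 decreased by 51.2%, a log2 fold change of -1.03 (SE 0.125, 95% interval -1.31 to -0.76, edgeR adjusted P = 1.4e-04), the largest fall among the members tested. Pecam1 (ENSMUSG00000020717; chr11:106654217-106750628, minus strand) counted 19, 12 and 19 under normal glucose, against 9, 13 and 18 under high glucose. Its groups overlapped, with sums of 50 counts (95% Poisson interval 37.1 to 65.9) and 40 counts (28.6 to 54.5). The log2 fold change was -0.31 (SE 0.398, edgeR adjusted P = 0.590), and its 95% interval ran from -1.20 to 0.57, so that neither a fall as large as that of Cdh5 nor a rise was outside it. At 0.128 ± 0.038 and 0.103 ± 0.036 CPM (SD, n = 3), the gene for the CD31 antigen used to collect the cells was in the lowest 1.16% of tested genes by level per kb.

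Egfl7 encodes a secreted protein that ECs deposit in the matrix around growing vessels, and Emcn encodes endomucin, a surface sialomucin of capillary and venous ECs. Egfl7 (ENSMUSG00000026921; chr2:26580014-26593120, plus strand) measured 11.7, 10.3 and 11.3 CPM in normal glucose and 9.48, 9.57 and 9.27 CPM in high glucose. The groups did not overlap, but the gap between them was smaller than the range within normal glucose. Egfl7 decreased by 14.8%, a log2 fold change of -0.23 (SE 0.073, 95% interval -0.39 to -0.07, edgeR adjusted P = 0.0346). That call was lost without normal glucose replicate 3 (edgeR adjusted P = 0.0847) and without high glucose replicate 1, 2 or 3 (edgeR adjusted P = 0.0790, 0.0627 and 0.0980). Some exonic bases of Egfl7 are shared with other gene models, namely 64 bp with Agpat2 on the opposite strand (log2 fold change 0.05, edgeR adjusted P = 0.497) and 264 bp with Gm20532 on the same strand, which had 0 to 3 counts. Mir126a, the microRNA gene that Egfl7 hosts, had 0 or 1 count per library in these poly(A) libraries. Emcn (ENSMUSG00000054690; chr3:137341067-137432185, plus strand) counted 0, 4 and 9 under normal glucose, against 3, 4 and 4 under high glucose. Its sums of 13 counts (95% Poisson interval 6.92 to 22.2) and 11 counts (5.49 to 19.7) overlapped, and with no filter on low counts its log2 fold change was -0.23 (edgeR adjusted P = 0.919).

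Erg encodes an ETS transcription factor that maintains the expression of endothelial genes, Cdh5 among its known targets. Erg (ENSMUSG00000040732; chr16:95359169-95586593, minus strand) counted 5, 8 and 2 under normal glucose, against 14, 15 and 12 under high glucose. The groups did not overlap, with sums of 15 counts (95% Poisson interval 8.40 to 24.7) and 41 counts (29.4 to 55.6). Its log2 fold change was 1.45 (SE 0.487, 95% interval 0.36 to 2.53, edgeR adjusted P = 0.0453), the largest rise and the widest interval among the members tested. The call did not hold with no filter on low counts (edgeR adjusted P = 0.0870), with DESeq2 (adjusted P = 0.121) or in 5 of the 6 fits that left out 1 library. The exception was the fit without normal glucose replicate 2 (edgeR adjusted P = 0.0413). An exact two-sided permutation test of single members with 3 samples against 3 cannot go below 0.1, the value that Cdh5, Flt1, Egfl7, Tek and Erg each reached.

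**Figure D2:**
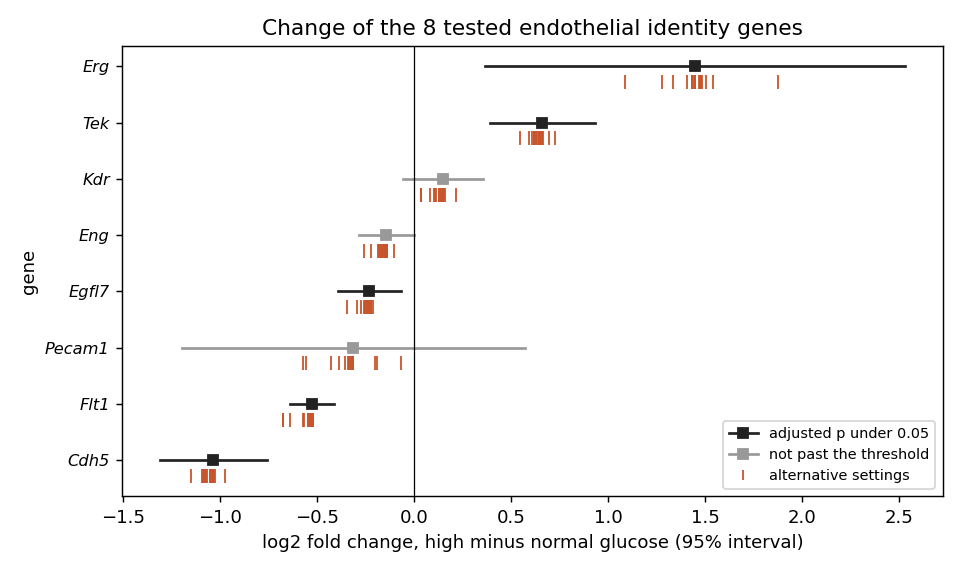
Log2 fold change (high minus normal glucose) of the 8 tested members from edgeR's quasi-likelihood fit, as squares with 95% intervals, black where called and grey where not; the ticks under each square are its values under the alternative settings. Cdh5 at -1.03, Flt1 at -0.53 and Egfl7 at -0.23 lie below 0, Tek at 0.66 and Erg at 1.45 lie above 0, and the interval of Erg is the widest.

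The members spanned a wide range of levels when expressed as CPM per kb of exon, the scale on which genes of different length can be compared. In normal glucose, Eng was highest at 38.3 ± 3.04 CPM per kb (SD, n = 3), followed by Flt1 at 4.09 ± 0.153 and Egfl7 at 3.10 ± 0.207. Kdr, Cdh5 and Tek came next at 0.549 ± 0.051, 0.428 ± 0.019 and 0.273 ± 0.028 CPM per kb. The ranges of these 6 neighbours did not overlap, whereas Pecam1 (0.0206), Erg (0.0108) and Emcn (0.0061) each overlapped with the next in the order, which ended with Tie1 (0.0011). In high glucose Tek, at 0.432 ± 0.027 CPM per kb, stood above Cdh5, at 0.208 ± 0.019, and Erg, at 0.0305, stood above Pecam1, at 0.0165, with no overlap between neighbours. The gap between Erg and Pecam1 rested on their exon lengths of 3466 and 6228 bp. Before that division their high glucose values, 0.0890 to 0.129 and 0.0634 to 0.134 CPM, overlapped. Ranked among the 19015 tested genes by mean level per kb, Eng was at percentile 92.9, Flt1 at 55.4, Egfl7 at 52.1, Kdr at 30.9, Cdh5 at 23.9 and Erg at 1.41, with Tek between Kdr and Cdh5. Dividing by the longest transcript in place of all exons raised the level of Flt1 1.96 times, Egfl7 1.92 times, Pecam1 1.81 times, Emcn 1.54 times and Kdr 1.52 times, and placed Pecam1 above Erg over all 6 samples.

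**Figure D3:**
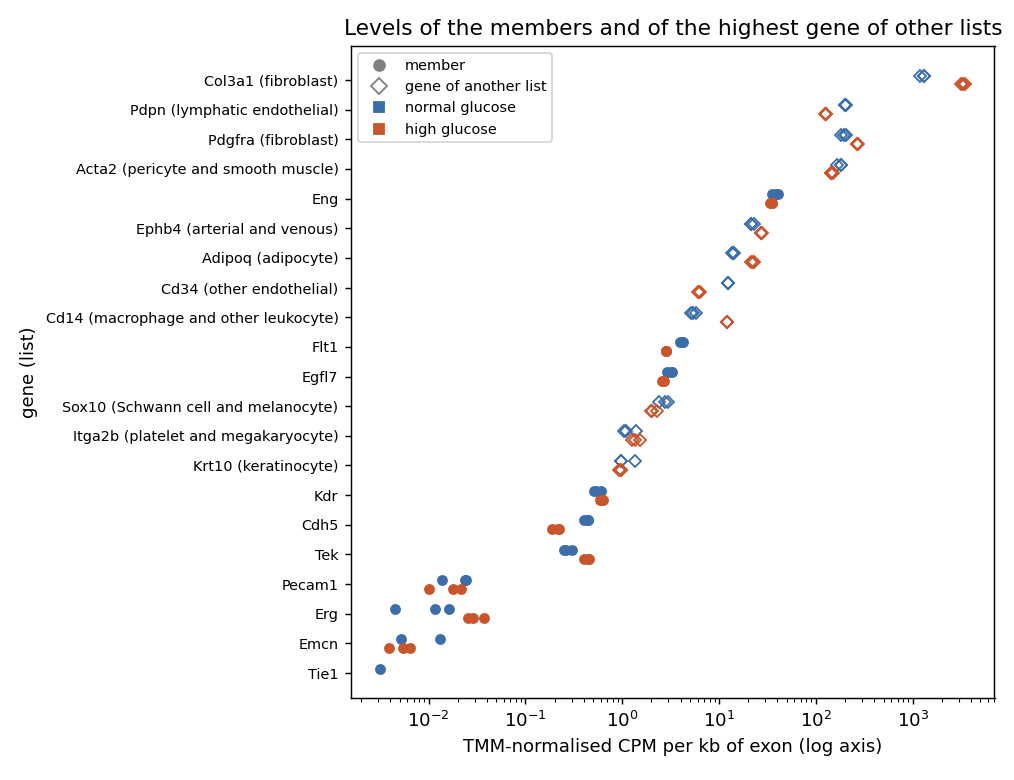
CPM per kb of exon (log axis) in each sample for the 10 members (filled circles) and for genes of the other lists (open diamonds), ordered by level; counts of 0 cannot be drawn on this axis and are left out, so Tie1 has 1 point (normal glucose replicate 3) and Emcn lacks normal glucose replicate 1. Eng lies near 38.3 and 34.7 CPM per kb in normal and high glucose, and Tek and Cdh5 change places between the groups.

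Ratios between pairs of genes within a sample do not depend on the library scale, and a few were computed after the values had been seen, as a description. An exact permutation test of each gave P = 0.1, the lowest it can give with 3 samples against 3, so no conclusion is drawn from it. Flt1 was 7.69, 6.92 and 7.86 times as high as Kdr per kb in normal glucose, and 4.71, 4.47 and 4.85 times in high glucose. The ratio of VEGFR1 to VEGFR2 transcripts was therefore lower in every high glucose sample. The ratio of Tek to Kdr was 0.502 ± 0.085 (SD, n = 3) under normal glucose, against 0.710 ± 0.031 under high glucose. Eng stood at 3.98 ± 0.279 times the level of Acvrl1, the gene of ALK1, in normal glucose and at 2.53 ± 0.023 times in high glucose. Relative to Pdgfra, a receptor gene of fibroblasts at 195 and 268 CPM per kb, Eng went from a ratio of 0.197 ± 0.010 to 0.130 ± 0.0052.

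The ligands, partners and relatives of the members were 27 genes, of which 25 were tested. Among these, 3 were called lower, 12 were called higher and 10 were not called, with a median log2 fold change of 0.14. Of all tested genes, 14.5% were called lower and 16.9% higher. With library size alone as the scale, 8 were called lower and 10 higher, where 4884 and 1819 of 19015 tested genes were. Without normal glucose replicate 1, 6 were called lower, where 3043 of 19433 tested genes were. The angiopoietins, the ligands of TIE2, moved in opposite directions, with the TIE2 agonist Angpt1 higher and the context-dependent antagonist Angpt2 lower. Angpt1 measured 10.3 ± 0.910 CPM under normal glucose and 20.4 ± 1.43 CPM under high glucose (log2 fold change 0.98, edgeR adjusted P = 9.6e-06). Angpt2 went from 9.39 ± 0.298 to 3.43 ± 0.193 CPM (log2 fold change -1.46, edgeR adjusted P = 7.6e-07). Angpt4, a further angiopoietin, had the largest rise of the list, from 15.6 ± 0.173 to 44.5 ± 0.813 CPM (log2 fold change 1.51, edgeR adjusted P = 3.8e-08). The ratio of Angpt1 to Angpt2 per kb was 0.754, 0.856 and 0.727 under normal glucose, against 4.21, 4.45 and 4.00 under high glucose. Angpt1 shares 737 bp of exon with an antisense model, Gm17473, and whether strand was used in counting is not given in the sources used here.

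Among the ligands of the VEGF receptors, Vegfa, which binds VEGFR1 and VEGFR2, was not called (log2 fold change -0.08, edgeR adjusted P = 0.335). Vegfb, a ligand of VEGFR1, fell by 0.31 on the log2 scale (edgeR adjusted P = 8.2e-04). Pgf, which encodes placental growth factor, also a ligand of VEGFR1, was not called (log2 fold change -0.24, edgeR adjusted P = 0.301). Vegfd, which binds VEGFR3 and in some species VEGFR2, rose by 0.86 (edgeR adjusted P = 1.3e-06). Vegfc, a ligand of VEGFR3 and VEGFR2, rose by 0.43 (edgeR adjusted P = 4.6e-04). Nrp1, a co-receptor for VEGF-A, went from 84.3 ± 7.70 to 128 ± 1.23 CPM (log2 fold change 0.60, edgeR adjusted P = 8.3e-05). The related co-receptor gene Nrp2 rose by 0.28 (edgeR adjusted P = 0.00352). These ligands and co-receptors were called in both directions or not at all. On the endoglin side, Acvrl1 rose from 41.0 ± 0.474 to 58.6 ± 1.21 CPM (log2 fold change 0.52, edgeR adjusted P = 2.4e-05), while Eng was not called. The type III, type II and BMP type II receptor genes Tgfbr3, Tgfbr2 and Bmpr2 were called higher too, at 0.29, 0.24 and 0.34, and Tgfbr1 was not called. Tgfbr2 kept its call in 11 of 18 alternatives and lost it, among others, with library size alone, with no filter on low counts and without high glucose replicate 1, 2 or 3 (adjusted P up to 0.267 over the alternatives). Bmpr2 kept its call in 15 of 18 and lost it with library size alone, without normal glucose replicate 3 and without high glucose replicate 2. Gdf2 and Bmp10, whose products BMP9 and BMP10 are ligands of ALK1 and endoglin, had 0 to 5 counts per library.

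The genes of the catenins that bind VE-cadherin inside the cell were not called: Ctnnb1 had a log2 fold change of -0.07, Ctnnd1 of 0.13, Ctnna1 of -0.11 and Jup of 0.03. Ctnnd1 shares 4482 of its 7319 bp of exon with Gm28635 on the same strand, and how reads were divided between these models was not tested. Cdh2, which encodes the N-cadherin of fibroblasts and other mesenchymal cells and also of ECs, had a log2 fold change of 0.14 (edgeR adjusted P = 0.0546). Ctnna1, whose groups did not overlap, was called lower in 7 of 18 alternatives (adjusted P down to 0.00334), including upper quartile scaling, library size alone and the fit without normal glucose replicate 1. Ctnnb1 was called in 2 of 18, with library size alone and without normal glucose replicate 1, and Ctnnd1 in 1, without normal glucose replicate 2. Of the ETS relatives of Erg, Ets2 rose by 0.58 and Etv6 by 0.30, Ets1 was not called at -0.21 (edgeR adjusted P = 0.0507), and Elk3 was not called at -0.09. The call of Ets1 depended on the setting, since it was called lower in 11 of 18 alternatives, among them DESeq2, upper quartile scaling and the fit without normal glucose replicate 3 (adjusted P 0.00805 to 0.129 over the alternatives). Elk3 was called lower in 4 of 18, with library size alone, with the GC and length trend removed with or without the replicate block, and without normal glucose replicate 1. Egfl8, a paralog of Egfl7, fell by 0.55 on the log2 scale (edgeR adjusted P = 0.00960), and it shares 615 bp of exon with Gm20460 on the same strand.

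**Figure D4:**
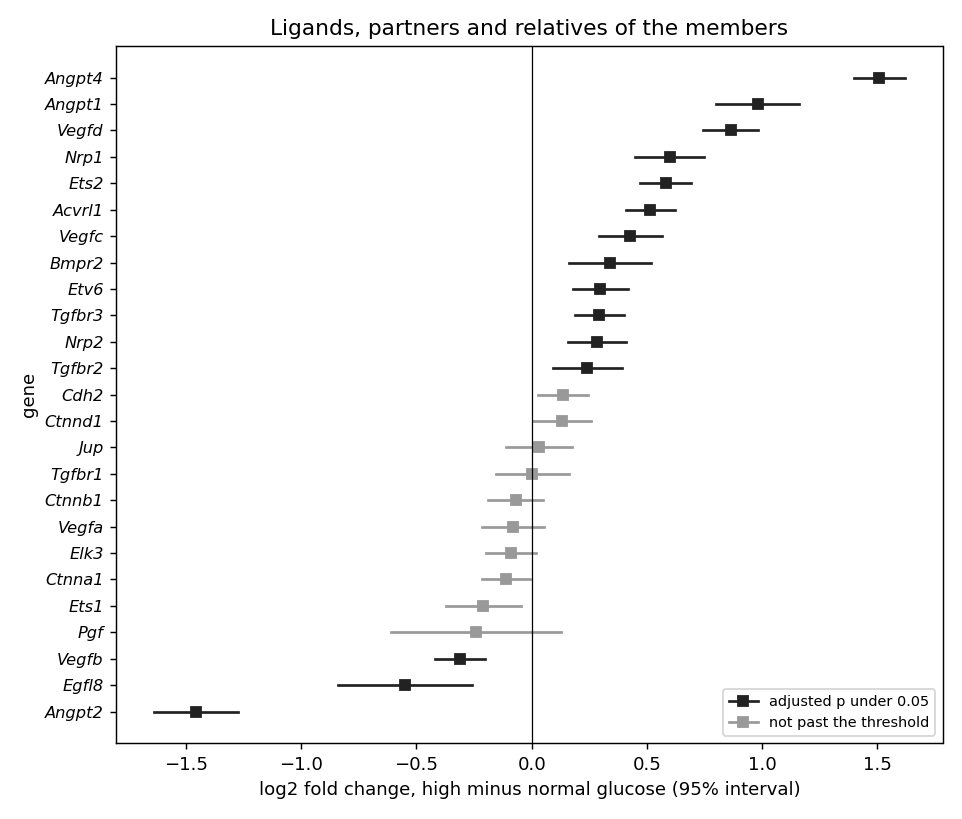
Log2 fold change (high minus normal glucose) with 95% intervals of the 25 tested ligands, partners and relatives of the members, ordered by size, black where called and grey where not. Angpt2 lies lowest at -1.46 and Angpt4 highest at 1.51, while Vegfa and the catenins lie near 0.

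A list of 28 other endothelial genes set the members beside genes of the same cell type. Of these, 18 were tested, 5 were called lower, 2 were called higher and 11 were not called, with a median log2 fold change of -0.06. Of all tested genes, 14.5% were called lower and 16.9% higher. Gpihbp1 and Sox17 had 0 counts in all 6 libraries, and Cldn5, the tight junction gene of ECs, had 1 count in normal glucose and 4 in high glucose, each in a single library. A further 5 genes (Icam2, Sele, Tal1, Mmrn1 and Robo4) had under 10 counts in every library, as did Tie1 and Emcn among the members. Clec14a, in contrast, had 5781 to 7316 counts per library, the most of the list besides Cd34. It stood at 10.6 ± 0.482 and 11.4 ± 0.277 CPM per kb, percentile 77.5 among tested genes. Clec14a was not called (log2 fold change 0.11, edgeR adjusted P = 0.148). Cd34, a sialomucin of ECs that some fibroblasts and progenitor cells also carry, fell from 90.3 ± 0.831 to 45.3 ± 1.22 CPM (log2 fold change -0.99, edgeR adjusted P = 3.0e-07). Sox7, a transcription factor gene of ECs, fell by 0.79 and Cd93 by 0.74 on the log2 scale (edgeR adjusted P = 0.00149 and 0.00460). Ecscr, which encodes an endothelial surface protein, fell by 0.52 (edgeR adjusted P = 0.00281). Plvap, which encodes the diaphragm protein of fenestrae and caveolae, rose by 0.44 (edgeR adjusted P = 0.00502). Vwf, Nos3, Ptprb and Fli1 were not called, with log2 fold changes of -0.34, -0.09, 0.22 and 0.04. The list held 0.0173% to 0.0174% of all raw counts in normal glucose and 0.0116% to 0.0121% in high glucose. Without Cd34 it held 0.00785% to 0.00819% and 0.00731% to 0.00764%, so most of the fall in its share was that of Cd34.

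Genes with a pattern over the 6 samples like that of a member were looked for among 12478 other tested genes (12479 for Tek) whose mean log2 CPM reached 1, for members with at least 100 counts in every library, which Cdh5 missed with 91 counts in 1 library. Correlations of log2 normalised CPM over 6 samples that fall into 2 groups are descriptions, since any gene with a clear group difference and little spread will resemble another. For Flt1 the likest were Zfp365 and Cdh4 (Pearson r = 0.99989 and 0.99972), and 163 genes exceeded 0.99. For Tek they were Zfp867 and Runx1t1 (r = 0.996 for each), with 13 genes over 0.99. Egfl7 was matched most closely by Gm6311 and Rps2-ps10 (r = 0.996 for each), with 21 genes over 0.99. Kdr and Eng had fewer close matches, with 5 and 2 genes over 0.99, led by Mysm1 and Hook3 for Kdr (r = 0.996 and 0.993) and by Sirt2 and Oas3 for Eng (r = 0.9919 and 0.9905). None of the genes named here as likest belongs to the endothelial lists used, and whether the other genes over 0.99 do is not given.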

How the data were processed

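Reads were trimmed (Trimmomatic), aligned to GRCm38 (HISAT2) and enumerated per gene (StringTie) by the authors, as their methods and the submitters' processing notes state. Versions, the annotation and strand use are not given in the sources used here. They deposited whole-number counts per gene and sample, without normalization. The labels name TRIzol and the DNBSeq platform, whereas the methods name a QIAGEN kit and an Illumina HiSeq. No column of the table was left unmapped to a sample. Symbols were found for 55141 of 55487 identifiers, and the other 346 held 0.034% of the counts. Groups came from the sample titles.

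The counts were tested here with edgeR 4.0.16 under R 4.3.3, using its filterByExpr filter (10 as the minimum count, 15 as the minimum total), TMM factors and the quasi-likelihood test without covariates over all 6 samples, and Benjamini-Hochberg adjustment over 19015 genes at a threshold of 0.05. Replicates of a group differed by more than sampling noise (chi-square per degree of freedom 9.76 to 59.9). Levels per kb used the union of exons in GENCODE M21, which also gave positions. Promoter windows came from RefSeq, which had an entry for 8 of the 10 members. The fit was tested on simulated data.

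The members and lists were chosen with earlier results of these data known. All members are named. Of the other lists, the genes named are up to 4 called genes in each direction with the largest change among those with a mean of at least 50 counts, those at 0 counts, a few genes named in every case (such as Vwf, Cldn5, Nos3, Angpt1 and Vegfa), the most abundant genes of the other cell types, and the 2 genes with the likest pattern to a member. The remaining partners are named as members of their list, and genes named outside this rule were chosen after their values were seen. Alternatives were other tests (likelihood ratio, robust fitting, DESeq2 1.42.0), normalizations and filters, halved counts in case both reads of a pair were counted, the replicate block and each library left out. Removal of the trend of each library on GC content and gene length, without and with the block, was added after the data had been seen.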

Additional observations from a re-analysis of the deposited data

How the results depend on the processing

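Over 18 alternatives Cdh5 (log2 fold change -1.15 to -0.98), Flt1 (-0.68 to -0.52) and Tek (0.55 to 0.73) were called each time and Kdr (0.03 to 0.22) was not, and every tested member kept its direction. Pecam1 and Erg were left out by the filter at 1 CPM in 3 samples and by halving the counts, and Pecam1 was not called in its other 16. Egfl7 was called in 13 of 18, and leaving out 1 library gave -0.30 to -0.21. Eng was called with upper quartile scaling at -0.19, library size alone at -0.26, the GC and length trend removed at -0.18, with the replicate block as well at -0.18, and in 1 of 6 fits without a library (-0.22 to -0.10). Erg was called in 5 of 16: it lost its call with DESeq2 at 1.47, upper quartile scaling at 1.41, library size alone at 1.33, no filter at 1.43, the replicate block at 1.504 and the trend removed with the block at 1.49, and without a library it ranged from 1.09 to 1.88. In each of these settings, and with the 1 CPM filter or halved counts, 1 member was called higher (1 to 2 without a library). Over all genes these settings called 1819 (library size alone) to 3134 (DESeq2) higher, of 13667 to 31922 tested. The fits without a library called 1988 to 3149 higher, of 19258 to 19601 tested. With the 1 CPM filter, which tests fewer genes, 8 of the other endothelial genes were tested. Of these, 3 were called lower and 1 higher, where 2633 and 2839 of all 13667 tested genes were. The cause of the other changes was not tested. Replicate numbers 1 to 3 occur in both groups, but deviations of same-numbered samples correlated at -0.025, 0.0038 and 0.013 across genes, so the numbers were not taken to pair the samples. The replicate block gave 2418 lower and 2909 higher genes, left Egfl7 at -0.23 without a call (edgeR adjusted P = 0.0666) and Erg at 1.504 without a call (edgeR adjusted P = 0.0576), and changed no other member's call. Counts limit Pecam1, Erg, Emcn and Tie1, each with under 20 counts in every library.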

Other observations

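Lymphatic and arterial or venous genes were also measured in these cultures. Of 6 lymphatic genes, 4 were tested, 2 were called lower and none higher, where 14.5% of all tested genes were called lower and 16.9% higher. Pdpn, which encodes podoplanin and is expressed by fibroblasts as well as lymphatic ECs, was the most abundant of them at 365 ± 2.65 CPM in normal glucose and 230 ± 5.13 CPM in high glucose (SD, n = 3), a log2 fold change of -0.67 (edgeR adjusted P = 3.7e-06). Reln fell by 0.79 on the log2 scale from few counts (40, 51 and 48 against 35, 24 and 21, edgeR adjusted P = 0.0319), and 6 of its 17 alternatives did not call it. Prox1, the lymphatic master transcription factor gene, had 41 to 78 counts per library and a log2 fold change of 0.07. Flt4, which encodes VEGFR3, measured 6.40 ± 0.505 and 7.48 ± 0.387 CPM and was not called (log2 fold change 0.22, edgeR adjusted P = 0.0747). Ccl21a had 0 counts in every library, and Lyve1 had 0 to 14.

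Of 7 arterial and venous genes, 5 were tested, 1 was called lower and 1 higher, against 14.5% and 16.9% of all tested genes. Efnb2, the gene of the arterial ligand ephrin-B2, went from 78.0 ± 2.46 to 50.3 ± 0.532 CPM (log2 fold change -0.63, edgeR adjusted P = 7.1e-06). Ephb4, the gene of its venous receptor EPHB4, went from 102 ± 4.39 to 126 ± 1.85 CPM (log2 fold change 0.30, edgeR adjusted P = 0.00134). Nr2f2, a venous transcription factor gene that mesenchymal cells express too, was not called (log2 fold change 0.04). The arterial connexin genes Gja4 and Gja5 had 0 to 7 counts per library. Efnb2 and Ephb4 kept their calls under all 18 alternatives run, and both genes are expressed in cells other than ECs.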
